A study of Mus musculus with 26 samples.

Results

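Cholesterol synthesis was followed through 8 genes: Srebf2, which encodes the transcription factor SREBP2, its target Insig1, which encodes a brake on SREBP2, and the enzyme genes Hmgcs1, Idi1, Fdft1, Sqle, Lss and Cyp51. The members were chosen by name from the 50686 genes listed in the deposited counts, after matching Ensembl identifiers to mouse symbols, and all 8 were found and passed the filter on low counts that left 17286 genes. Cells build cholesterol from acetyl-CoA through mevalonate, isoprenoids, squalene and lanosterol. When membrane sterols are low, SCAP carries SREBP2 from the endoplasmic reticulum to the Golgi, where it is cut, and the released part enters the nucleus and turns on the enzymes of the pathway, genes of lipoprotein uptake and INSIG1. When sterols are high, INSIG proteins hold SCAP and SREBP2 in the endoplasmic reticulum. Brown adipose tissue (BAT) burns lipid to make heat and takes up much lipid from circulating lipoproteins in the cold.

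RNA was sequenced from BAT of 26 male C57BL/6J mice, 12 to 16 weeks old. All mice were kept at thermoneutrality for 2 weeks (30 °C in the labels, 29 °C in the methods), and part of them were then moved to 5 °C for 6 h. The groups were 7 WT mice at 30 °C, 7 mice labelled Afadin KO at 30 °C, 5 WT mice at 5 °C and 7 mice labelled Afadin KO at 5 °C. The KO was made with Cre under the Adiponectin promoter and floxed Mllt4 (Afdn, the gene of the cell junction protein Afadin), so that cells of BAT other than adipocytes should keep the gene. The WT mice were control littermates, whose exact alleles are not given in the sources used here.

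Total counts ran from 12705969 to 25732258 per mouse, and the tissue was checked against its markers: all 8 brown adipocyte markers were detected, with summed levels of 6728 to 8509 CPM (counts scaled to library size with TMM factors) at 30 °C and 27970 to 35610 at 5 °C. Ucp1, the uncoupling protein of brown fat, rose by 4.02 on the log2 scale in WT mice, from a mean of 985 to 16000 CPM. Ucp1 is 1 of the 8 markers and made up much of their summed level at 5 °C. Over the 8 markers, the median log2 fold change with cold was 0.58 in WT mice and 0.75 in mice labelled Afadin KO. Afdn had 196 ± 21.0 CPM (SD, n = 7) in WT mice and 195 ± 27.4 (SD, n = 7) in mice labelled Afadin KO at 30 °C, and 73.5 ± 4.28 (SD, n = 5) and 58.5 ± 4.15 (SD, n = 7) at 5 °C. As Afdn RNA at 30 °C did not separate the labels, groups are called by those labels, and counts over the whole gene may include reads outside the deleted part. WT30 replicate 7 stood apart, with 14.3% of its counts from mitochondrial genes against 33.9% to 40.5% in the other WT mice at 30 °C. The summed level of 5 nuclear-retained RNAs was 8966 to 10590 CPM in WT mice and 10440 to 11800 in mice labelled Afadin KO at 30 °C, and 14840 to 16280 and 10340 to 13580 at 5 °C. In bulk tissue, fewer cells of a type and less RNA per cell cannot be told apart.

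In WT mice, 6 of the 8 members changed after 6 h of cold, but not in the same direction. Hmgcs1, Sqle and Lss rose, Fdft1, Insig1 and Idi1 fell, and Cyp51 and Srebf2 did not pass the test. In mice labelled Afadin KO, Hmgcs1, Sqle and Lss also rose, and Fdft1, Insig1 and Idi1 also fell. The fold changes ran from -3.26 to 0.88 on the log2 scale in WT mice, with a median of -0.04 against -0.01 over all genes tested, and from -2.46 to 0.84 in mice labelled Afadin KO, with a median of 0.10 against -0.03. Changes with cold were common in this tissue: at the same threshold of 0.05 (quasi-likelihood test of edgeR, p-values adjusted over all genes by the Benjamini-Hochberg method and called the edgeR adjusted p below), 31.6% of all genes were called higher and 33.4% lower in WT mice, and 33.7% and 34.9% in mice labelled Afadin KO. The share of members called was therefore near the background. How many of all genes had no overlap between temperatures was not counted, so the overlaps given below only describe each member. Without WT30 replicate 7, 6 members were still called in the cold in WT mice, from -3.26 for Fdft1 to 0.85 for Hmgcs1, with Insig1 at -1.99, Idi1 at -0.91, Sqle at 0.41 and Lss at 0.33. That fit called 65.7% of all genes, so the share of members was again near the background.

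**Figure D1:**
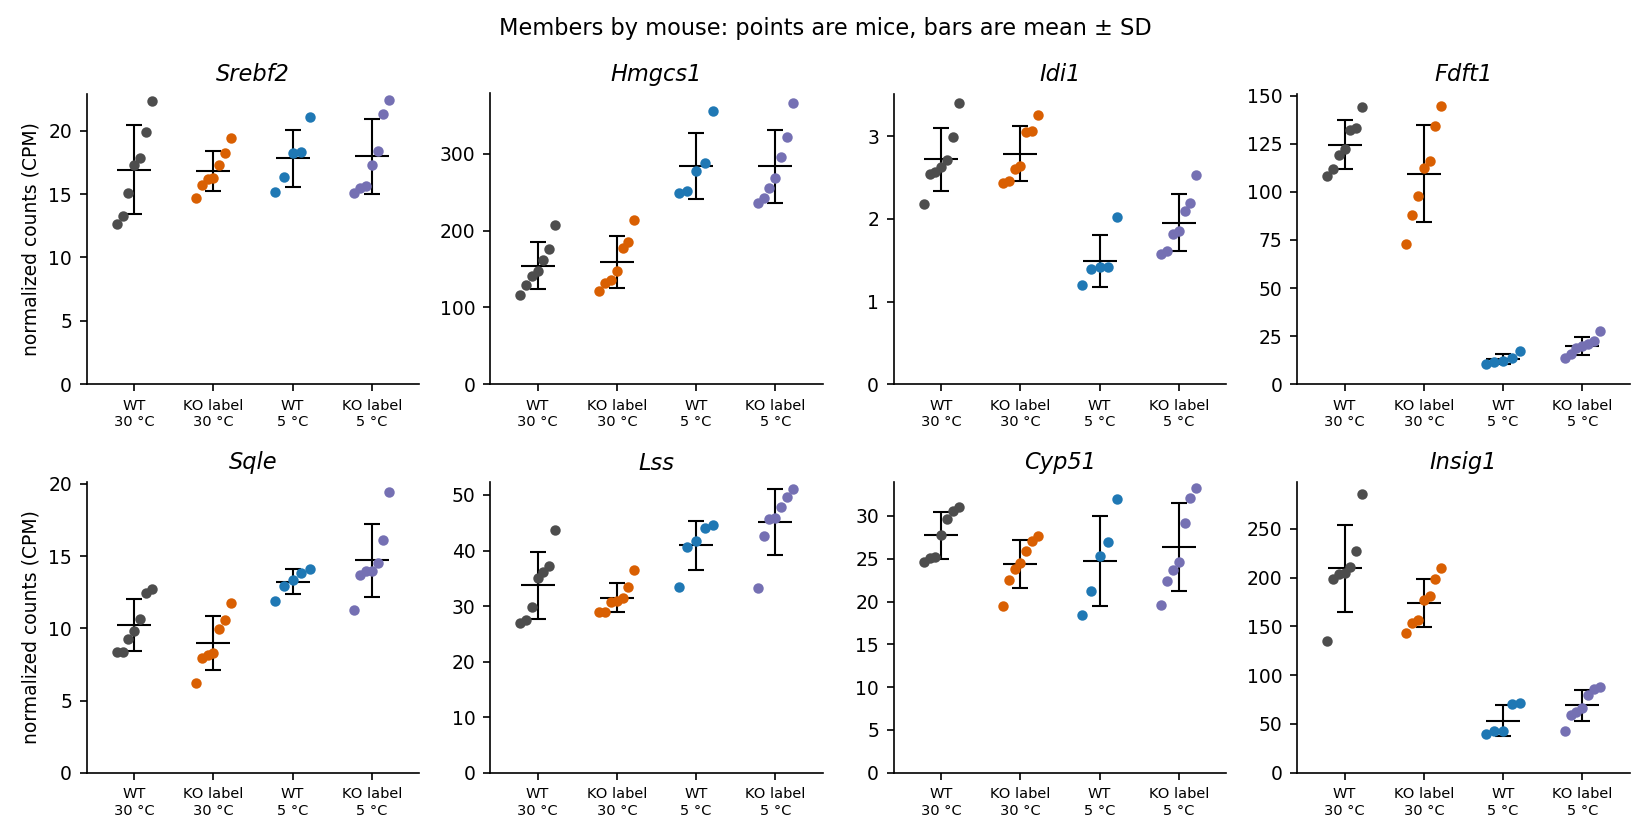
Normalized counts (CPM, linear axis from 0) of the 8 members in each group. Each point is a mouse, horizontal bars are group means and whiskers are ± SD. Fdft1 and Insig1 fell in the cold with no overlap between temperatures, Hmgcs1 rose with no overlap, and Srebf2 stayed between 12.6 and 22.4 CPM in all 26 mice. The share of all genes without such overlap was not counted.

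Srebf2 (ENSMUSG00000022463.7, chromosome 15 from 82147181 to 82205379 in the mm10 assembly, plus strand) is the source of the SREBP2 protein. Its RNA had a lowest, median and highest level of 12.6, 17.3 and 22.3 CPM in WT mice at 30 °C and 14.7, 16.2 and 19.4 CPM in mice labelled Afadin KO at 30 °C. After cold, the 5 WT mice had 15.2, 21.1, 16.3, 18.3 and 18.2 CPM, and the mice labelled Afadin KO had 15.1, 17.3 and 22.4 as lowest, median and highest. All 4 groups overlapped. The cold response was 0.07 on the log2 scale in WT mice (SE 0.13, edgeR adjusted p = 0.627), with a 95% interval of 0.878 to 1.26 for the fold, and 0.10 in mice labelled Afadin KO (SE 0.12, edgeR adjusted p = 0.464), with an interval of 0.906 to 1.26. The direction turned to -0.08 and -0.21 when counts were scaled by library size alone. This scaling also moved the median of all genes to -0.14 and -0.34. The level of this RNA does not measure how much of the protein was cut and active.

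The promoters of 3 members are shown because their genes had different responses in the cold: no call for Srebf2, a rise for Hmgcs1 and a fall for Insig1. Those of Srebf2 and Hmgcs1 hold core letters of a sterol response element, a site through which SREBP2 is known to act. That of Insig1 holds no such core in the stretch shown, but an E-box. Each promoter runs 5′ to 3′ on the strand of its gene, as given by RefSeq for GRCm38.p6. It starts 250 bases before the start of the transcript and ends 50 bases after it. The windows are chr15:82147019-82147318 (plus strand) for Srebf2, chr13:119690101-119690400 (plus strand) for Hmgcs1 and chr5:28071162-28071461 (plus strand) for Insig1. Capitals mark the core letters of a sterol response element (TCACNCCA or CACCCCAC), the E-box CACGTG, and CCAAT, a site of NF-Y, read on either strand (ATTGG on the other strand).
Srebf2: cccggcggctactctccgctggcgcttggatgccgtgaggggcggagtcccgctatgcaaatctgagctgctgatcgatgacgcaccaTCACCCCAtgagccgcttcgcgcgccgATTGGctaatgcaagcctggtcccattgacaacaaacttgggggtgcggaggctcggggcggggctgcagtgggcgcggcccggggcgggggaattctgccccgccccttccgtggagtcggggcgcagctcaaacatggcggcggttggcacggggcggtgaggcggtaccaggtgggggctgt
Hmgcs1: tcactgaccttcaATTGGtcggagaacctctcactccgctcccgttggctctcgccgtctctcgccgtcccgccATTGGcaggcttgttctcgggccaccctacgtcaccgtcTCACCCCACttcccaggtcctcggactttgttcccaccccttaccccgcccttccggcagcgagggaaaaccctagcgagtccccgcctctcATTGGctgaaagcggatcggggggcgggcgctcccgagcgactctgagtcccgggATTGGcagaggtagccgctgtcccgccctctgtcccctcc
Insig1: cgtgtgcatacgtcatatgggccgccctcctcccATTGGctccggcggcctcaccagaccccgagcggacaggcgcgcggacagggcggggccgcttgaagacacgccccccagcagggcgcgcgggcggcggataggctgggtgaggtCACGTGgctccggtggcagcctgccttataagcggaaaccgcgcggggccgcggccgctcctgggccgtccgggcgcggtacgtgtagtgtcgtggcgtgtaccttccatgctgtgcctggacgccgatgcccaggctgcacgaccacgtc
The RefSeq table held promoters of 6 members, those of Srebf2, Hmgcs1, Idi1, Lss, Cyp51 and Insig1. On either strand, TCACNCCA was found in 2 of these 6 (Srebf2, from base -162, and Hmgcs1, from base -137), against 4.36% of the 32851 promoters of the same length in the table. CACCCCAC was found in 1 of 6, in Hmgcs1 from base -136 and so overlapping the other match, against 2.87%. The E-box CACGTG was found in 1 of 6, in Insig1 from base -101, against 7.15%, and the longer palindrome TCACGTGA in 0 of 6 against 0.974%. CCAAT was found in 6 of 6 against 37.4%, and GGGCGG, a site of Sp1 not set in capitals, in 6 of 6 against 35.7%. Lss, which also rose in the cold, and Idi1, which also fell, held neither a core nor the E-box. These matches describe letters in a window, not binding, and their relation to the responses in the cold was not tested.

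Hmgcs1 (ENSMUSG00000093930.1, chromosome 13 from 119690379 to 119708260, plus strand) encodes the cytosolic enzyme that makes HMG-CoA at the entry of the mevalonate pathway. Levels ran from 117 to 208 CPM (median 147) in WT mice at 30 °C and were 251, 277, 356, 287 and 249.1 CPM in the 5 WT mice at 5 °C. In mice labelled Afadin KO they ran from 122 to 214 CPM (median 147) at 30 °C and from 236 to 366 CPM (median 268) at 5 °C. Every mouse at 5 °C was above every mouse at 30 °C within each label. The rise was 1.84-fold in WT mice, 0.88 on the log2 scale (SE 0.14, edgeR adjusted p = 6.1e-06), and 1.78-fold in mice labelled Afadin KO, 0.84 on the log2 scale (SE 0.13, edgeR adjusted p = 4.1e-06). An antisense transcript, Gm48342, shares 462 bases with Hmgcs1 on the other strand and was not analysed here.

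Idi1 (ENSMUSG00000058258.14, chromosome 13 from 8885501 to 8892451, plus strand) encodes the isomerase that interconverts the isoprenoid units from which farnesyl pyrophosphate is built. It was the lowest of the members, with 20 to 65 counts per mouse. WT mice had 2.18 to 3.40 CPM (median 2.63) at 30 °C and 1.42, 1.39, 1.42, 1.20 and 2.02 CPM at 5 °C. Mice labelled Afadin KO had 2.44 to 3.26 CPM (median 2.63) at 30 °C and 1.57 to 2.53 CPM (median 1.85) at 5 °C. The WT mice of the 2 temperatures did not overlap, while those labelled Afadin KO did. It fell to 0.548 of its level at 30 °C in WT mice, -0.87 on the log2 scale (SE 0.15, edgeR adjusted p = 1.18e-05), and to 0.704 in mice labelled Afadin KO, -0.51 on the log2 scale (SE 0.13, edgeR adjusted p = 0.00129). Idi1 shares stretches with 4 other genes. The largest match is with the processed pseudogene Gm13502, over 684 bases at 100% identity, so reads can be shared between them. The counts of Gm13502 were 0 to 2 per mouse, but how reads matching both genes were counted is not given in the sources used here. Gm48574 overlaps Idi1 on the opposite strand and was not analysed here.

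Fdft1 (ENSMUSG00000021273.9, chromosome 14 from 63145150 to 63179578, minus strand) encodes squalene synthase, which joins farnesyl pyrophosphates into squalene and commits them to sterols. It had the largest change of the 8 members in both labels. WT mice had 108 to 144 CPM (median 122) at 30 °C and 12.3, 11.4, 13.9, 17.1 and 10.4 CPM at 5 °C. Mice labelled Afadin KO had 73.0 to 144 CPM (median 112) at 30 °C and 13.4 to 27.8 CPM (median 20.02) at 5 °C. No mouse at 5 °C came near any mouse at 30 °C. Fdft1 fell to 0.105 of its level at 30 °C in WT mice, -3.26 on the log2 scale (SE 0.18, edgeR adjusted p = 1.84e-14), and to 0.182 in mice labelled Afadin KO, -2.46 (SE 0.15, edgeR adjusted p = 1.07e-13). Only 0.584% of all genes tested had a lower log2 fold change in WT mice, and 1.49% in mice labelled Afadin KO.

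Reads of Fdft1 could be mixed with those of other genes in the counting, whose strand setting is not given in the sources used here. The processed pseudogene Gm6781 matches Fdft1 over 1249 bases at 97.4% identity and had 0 to 9 counts per mouse. Ctsb, the gene of the lysosomal protease cathepsin B, overlaps Fdft1 on the opposite strand and had 1045 ± 92.0 CPM (SD, n = 7) in WT mice at 30 °C, 948 ± 103 (SD, n = 7) in mice labelled Afadin KO at 30 °C, 812 ± 23.6 (SD, n = 5) in WT mice at 5 °C and 998 ± 103 (SD, n = 7) in mice labelled Afadin KO at 5 °C. Ctsb fell by 0.36 on the log2 scale with cold in WT mice (SE 0.08, edgeR adjusted p = 0.000219) and had a change of 0.08 in mice labelled Afadin KO (SE 0.07, edgeR adjusted p = 0.290). Its part in the values of Fdft1 was not tested.

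Sqle and Lss act next, and both rose. Sqle (ENSMUSG00000022351.14, chromosome 15 from 59315077 to 59331192, plus strand) encodes squalene monooxygenase, a rate-limiting enzyme that adds oxygen to squalene. WT mice had 8.35 to 12.8 CPM (median 9.79) at 30 °C and 11.9, 13.9, 14.1, 13.4 and 13.0 CPM at 5 °C. Mice labelled Afadin KO had 6.19 to 11.8 CPM (median 8.27) at 30 °C and 11.3 to 19.5 CPM (median 13.97) at 5 °C. The temperatures overlapped by a few mice in each label. The rise was 1.29-fold in WT mice, 0.37 on the log2 scale (SE 0.14, edgeR adjusted p = 0.0211), and 1.64-fold in mice labelled Afadin KO, 0.71 on the log2 scale (SE 0.13, edgeR adjusted p = 1.83e-05). The call in WT mice was lost with library size alone as the scaling (0.23, edgeR adjusted p = 0.234) and with upper-quartile factors (0.26, edgeR adjusted p = 0.088).

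Lss (ENSMUSG00000033105.12, chromosome 10 from 76531588 to 76557138, plus strand) encodes lanosterol synthase, which folds the oxidized squalene into the sterol rings. WT mice had 27.0 to 43.7 CPM (median 35.1) at 30 °C and 33.5, 40.7, 44.5, 41.7 and 44.1 CPM at 5 °C. Mice labelled Afadin KO had 28.96 to 36.5 CPM (median 30.8) at 30 °C and 33.2 to 51.1 CPM (median 45.9) at 5 °C. Both labels overlapped between temperatures. Lss rose 1.21-fold in WT mice, 0.28 on the log2 scale (SE 0.11, edgeR adjusted p = 0.0281), and 1.43-fold in mice labelled Afadin KO, 0.52 on the log2 scale (SE 0.10, edgeR adjusted p = 5.12e-05). The call in WT mice was lost without WT30 replicate 1, 3 or 5 or WT5 replicate 18, 19 or 21, each left out alone (0.23 to 0.27, edgeR adjusted p from 0.0501 to 0.0726), and under 5 of the 9 other settings tried. With library size alone as the scaling, the rise in mice labelled Afadin KO was not called either (0.19, edgeR adjusted p = 0.205). An antisense gene, 4930483K19Rik, shares 152 bases with Lss and had 1 to 14 counts per mouse.

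Cyp51 (ENSMUSG00000001467.5, chromosome 5 from 4081145 to 4104746, minus strand) encodes the demethylase that acts on lanosterol. Levels in WT mice were 24.6 to 31.0 CPM (median 27.8) at 30 °C and 18.4, 21.2, 27.0, 32.0 and 25.4 CPM at 5 °C. Levels in mice labelled Afadin KO were 19.5 to 27.6 CPM (median 24.5) at 30 °C and 19.6 to 33.2 CPM (median 24.6) at 5 °C. The groups overlapped, and the spread was wider at 5 °C, with an SD of 5.27 and 5.16 CPM against 2.76 and 2.81 at 30 °C (this difference in spread was not tested). The cold response was -0.16 on the log2 scale in WT mice (SE 0.13, edgeR adjusted p = 0.274, 95% interval of the fold 0.744 to 1.07) and 0.11 in mice labelled Afadin KO (SE 0.12, edgeR adjusted p = 0.397, interval 0.914 to 1.28). Akap9 overlaps Cyp51 on the opposite strand over 166 bases of transcript and had no call in the cold.

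Insig1 (ENSMUSG00000045294.11, chromosome 5 from 28071363 to 28078662, plus strand) encodes the retention protein that both answers to SREBP2 and restrains it. WT mice had 134 to 286 CPM (median 205) at 30 °C and 40.1, 42.6, 71.1, 70.3 and 42.9 CPM at 5 °C. Mice labelled Afadin KO had 143 to 209 CPM (median 177) at 30 °C and 43.1 to 87.9 CPM (median 66.6) at 5 °C. All mice at 5 °C were below all mice at 30 °C within each label. Insig1 fell by 74.5% in WT mice, -1.97 on the log2 scale (SE 0.19, edgeR adjusted p = 7.37e-10), and by 60.2% in mice labelled Afadin KO, -1.33 (SE 0.16, edgeR adjusted p = 5.77e-08). The related gene Insig2, whose protein has the same role, rose by 0.59 on the log2 scale in WT mice (edgeR adjusted p = 3.62e-06) and by 0.55 in mice labelled Afadin KO. The processed pseudogene Gm37784, which matches Insig1 over 189 bases, had 0 to 3 counts per mouse.

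The order of the members by level differed between the temperatures. Per length (RPKM over all annotated exons of a gene), the order in WT mice at 30 °C was Insig1 (67.7 ± 14.4, SD, n = 7), Hmgcs1 (33.5 ± 6.67), Fdft1 (29.4 ± 3.01), Cyp51 (6.28 ± 0.626), Lss (3.13 ± 0.559), Srebf2 (2.35 ± 0.489), Sqle (1.84 ± 0.325) and Idi1 (0.775 ± 0.110). The neighbours Hmgcs1 and Fdft1, Lss and Srebf2, and Srebf2 and Sqle overlapped within their SDs. In WT mice at 5 °C the order was Hmgcs1 (61.8 ± 9.43, SD, n = 5), Insig1 (17.3 ± 5.11), Cyp51 (5.61 ± 1.19), Lss (3.79 ± 0.412), Fdft1 (3.08 ± 0.623), Srebf2 (2.48 ± 0.315), Sqle (2.38 ± 0.158) and Idi1 (0.425 ± 0.0883). Fdft1, a near equal of Hmgcs1 at 30 °C, stood among Lss and Srebf2 in the cold, where it overlapped both within the SDs. The length of Lss includes exons of long annotated transcripts, which lowers its RPKM.

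The other genes of the pathway were taken from pathway lists. Of 17 other synthesis enzymes, 16 were tested, and in WT mice 2 rose and 11 fell in the cold, with a median of -0.79 on the log2 scale. Among those that rose was Hsd17b7, which encodes a ketosteroid reductase of the sterol branch (log2 fold change 1.28). Among those that fell, early steps included Acat2, which joins acetyl-CoA units (-1.20), the mevalonate kinase gene Mvk (-1.65), the decarboxylase gene Mvd (-1.09) and Fdps, which makes farnesyl pyrophosphate (-0.98). Late steps included the reductase gene Dhcr7 (-2.23) and the dehydrogenase gene Nsdhl (-1.10). In mice labelled Afadin KO, 4 of the 16 rose and 11 fell (median -0.50), with Pmvk (0.37), a mevalonate-branch kinase gene, and Ggps1 (0.15), which makes a longer isoprenoid, as the additional genes that rose. These 2 are named here after their values were seen. With library size alone or with upper-quartile factors as the scaling, 2 of the 16 rose. Over all genes tested, 31.6% were called higher in the cold and 33.4% lower in WT mice. In mice labelled Afadin KO these shares were 33.7% and 34.9%. Fdps has near copies in 7 other genes, which makes its counts uncertain.

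**Figure D2:**
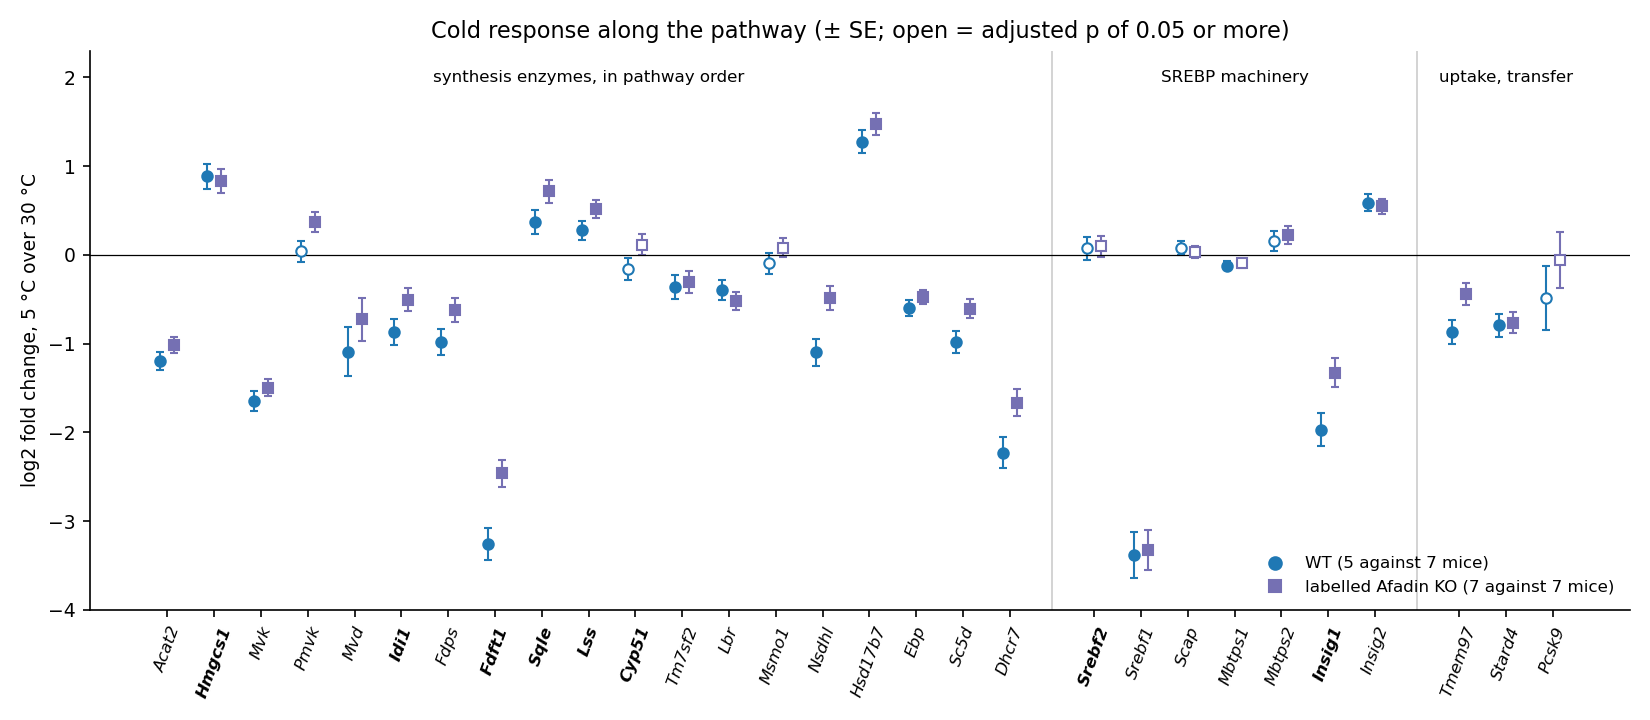
Log2 fold changes (5 °C over 30 °C, ± SE) for synthesis enzymes ordered along the pathway, the SREBP machinery, and uptake and transfer genes; circles are WT mice, squares mice labelled Afadin KO, open symbols did not pass the test and bold names are the 8 members. Genes above 0 and genes below 0 are mixed along the pathway, from Hmgcs1 (0.88) over Fdft1 (-3.26) to Sqle (0.37), Lss (0.28) and Dhcr7 (-2.23).

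Of the machinery that controls SREBP2, Scap, the escort of SREBP2, had a change of 0.07 on the log2 scale in WT mice (edgeR adjusted p = 0.421) and 0.03 in mice labelled Afadin KO (edgeR adjusted p = 0.699). Its direction turned with library size alone as the scaling, to -0.06 and -0.28, and the second of these values passed the test (edgeR adjusted p = 0.0354). The same scaling moved the median of all genes from -0.01 to -0.14 in WT mice and from -0.03 to -0.34 in mice labelled Afadin KO. Mbtps1, the protease gene of the Golgi cut, fell by 0.12 in WT mice, a call lost without WT30 replicate 1, 2 or 5 or WT5 replicate 16, 17, 19 or 21, each left out alone (edgeR adjusted p from 0.0508 to 0.126). Srebf1, which encodes SREBP1, the relative that acts on fatty acid synthesis, fell by 3.38 in WT mice and by 3.33 in mice labelled Afadin KO, among the largest falls of these lists. Tmem97 and Stard4, which act in cholesterol transport, fell by 0.87 and 0.79 in WT mice and by 0.44 and 0.76 in mice labelled Afadin KO.

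Mice labelled Afadin KO were next compared with WT mice at the same temperature. At 30 °C none of the 8 members was called by edgeR's quasi-likelihood test, with or without WT30 replicate 7, 0 had an unadjusted p under 0.05 and 0 were called by DESeq2. The background was low: 0.081% of all genes tested were called, 0.541% without WT30 replicate 7 and 0.278% by DESeq2. Over all 17286 genes, 1322 had an unadjusted p under 0.05. The differences ran from -0.27 for Insig1 to 0.05 for Hmgcs1 on the log2 scale, with a median of -0.14 against -0.02 over all genes. On the log2 scale the 95% interval was widest for Insig1, from -0.60 to 0.06, and narrowest for Lss, from -0.31 to 0.11.

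At 5 °C none of the 8 members was called by edgeR's quasi-likelihood test either, against 0.139% of all genes, while 3 had an unadjusted p under 0.05 and 1 was called by DESeq2. Over all 17286 genes, 2323 had an unadjusted p under 0.05 and DESeq2 called 197. The 3 were Fdft1, Idi1 and Insig1, the members that fell in the cold, and each had the higher mean in mice labelled Afadin KO. The same WT mice at 5 °C enter the cold response and this comparison. Low values in them would give both a fall in the cold and a higher mean in the other label, so the match is not independent. Fdft1 differed by 0.61 on the log2 scale (SE 0.16, edgeR adjusted p = 0.119), a fold of 1.52 with a 95% interval of 1.20 to 1.93, and it was the member called by DESeq2 (0.62, DESeq2 adjusted p = 0.0263). Without the KO5 mouse replicate 22 the difference was 0.68 and called (edgeR adjusted p = 0.0475). That fit also called more of all genes, 0.579%. Idi1 differed by 0.39 (SE 0.15, edgeR adjusted p = 0.251) and Insig1 by 0.37 (SE 0.18, edgeR adjusted p = 0.365). The mice of the labels overlapped for every member. The other 5 members ran from -0.002 for Hmgcs1 to 0.15 for Sqle.

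**Figure D3:**
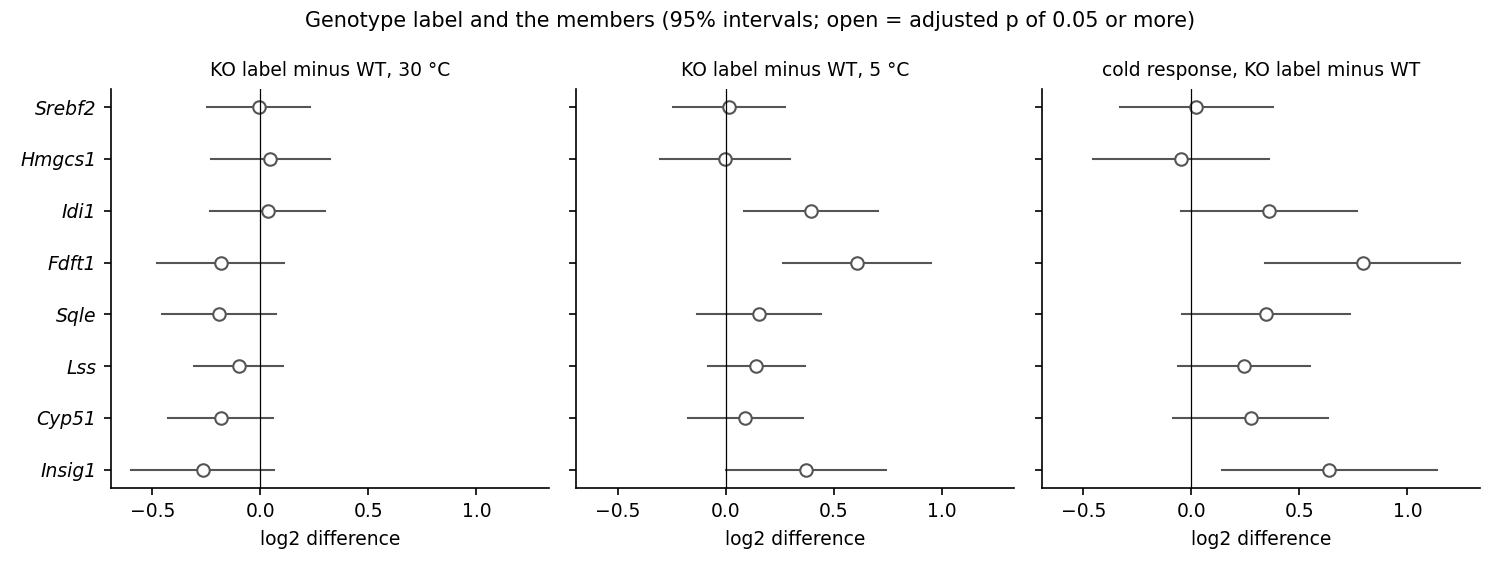
Log2 differences between mice labelled Afadin KO and WT mice at 30 °C and at 5 °C, and the difference of their cold responses, for the 8 members (points, with 95% intervals as lines); open points did not pass the test at 0.05. The intervals of Fdft1, Idi1 and Insig1 at 5 °C, and of Fdft1 and Insig1 for the cold response, lie above 0 before adjustment over all genes.

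The difference of the cold responses, tested as an interaction, was called for 0 of the 8 members by edgeR's quasi-likelihood test, against 1.16% of all genes, with 2 at an unadjusted p under 0.05 and 1 called by DESeq2. Over all 17286 genes, 2804 had an unadjusted p under 0.05 and DESeq2 called 488. These comparisons use the same mice as those above. For Fdft1 the response of mice labelled Afadin KO was 0.79 higher on the log2 scale, that is a smaller fall (SE 0.22, edgeR adjusted p = 0.067, 95% interval 0.34 to 1.24). It was called by DESeq2 (0.81, DESeq2 adjusted p = 0.0167), without KO30 replicate 13 (0.87, edgeR adjusted p = 0.0482) and without KO5 replicate 22 (0.87, edgeR adjusted p = 0.0301). Of all genes, 1.03% were called without KO30 replicate 13 and 1.75% without KO5 replicate 22. Ctsb on the opposite strand had a difference of 0.44 in the same direction (SE 0.10, edgeR adjusted p = 0.0355). For Insig1 the difference was 0.64 (SE 0.24, edgeR adjusted p = 0.180, interval 0.14 to 1.14). The other members ran from -0.05 for Hmgcs1 to 0.36 for Idi1, and the median of the 8 was 0.31 against 0.04 over all genes. With library size alone as the scaling, the median of all genes moved to -0.15.

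Over the 33 tested genes for synthesis, SREBP control and uptake, 26 were higher and 7 lower in mice labelled Afadin KO at 5 °C (median 0.14 against 0.02 over all genes), and 10 were higher and 23 lower at 30 °C (median -0.04 against -0.02). None was called at either temperature, and 9 and 1 had an unadjusted p under 0.05. Of all 17286 genes, 9472 were higher at 5 °C and 7613 at 30 °C, and 2323 and 1322 had an unadjusted p under 0.05. The 8 members are part of these genes. Beside these values, the summed level of 6 red blood cell markers was 518 to 1500 CPM in mice labelled Afadin KO and 417 to 685 in WT mice at 5 °C, and 6 of 6 rose in the cold in mice labelled Afadin KO and 0 of 6 in WT mice. Macrophage markers summed to 154 to 239 CPM in mice labelled Afadin KO and 144 to 185 in WT mice at 5 °C, and 4 of 6 rose in the cold in mice labelled Afadin KO and 1 of 6 in WT mice. Neutrophil markers summed to 3.17 to 44.2 CPM in mice labelled Afadin KO (median 5.90) and 3.09 to 7.66 in WT mice (median 5.87), and lymphocyte markers to 0.823 to 15.2 (median 1.10) and 0.771 to 1.46 (median 1.35). No marker of these 4 cell types was called between labels at 5 °C or for the difference of the cold responses. Over all genes tested, 33.7% were called higher in the cold in mice labelled Afadin KO and 31.6% in WT mice. Nuclear-retained RNAs were lower in mice labelled Afadin KO at 5 °C (above), with 2 of 5 called lower for the difference of the cold responses. Skeletal muscle markers summed to 0.815 to 7039 CPM over the mice at 5 °C. Their part in these values was not tested.

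Within groups, members varied together only in part. Each mouse's deviation from its group mean in log2 CPM was compared over all 26 mice, as a description, since values of a mouse share a library and its scaling. Over the 28 pairs of members, Pearson's r ran from -0.55 to 0.61 with a median of 0.29. It was highest for Cyp51 with Insig1 (r = 0.61, Spearman's rho = 0.55, and r = 0.47 without the 2 mice farthest from the median) and lowest for Idi1 with Fdft1 (r = -0.55, rho = -0.56, and r = -0.57 without 2 mice). With the mean of the other 7, r was 0.69 for Cyp51, 0.65 for Insig1, 0.60 for Lss and 0.58 for Sqle, but -0.06 for Idi1 and -0.11 for Fdft1. With library size alone as the scaling, the median over the pairs was 0.46.

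**Figure D4:**
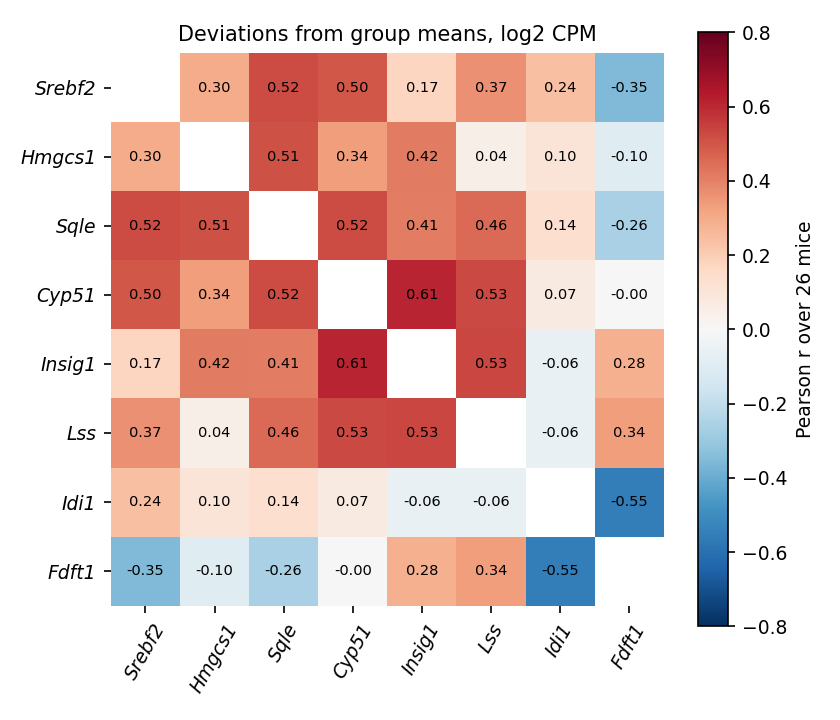
Pearson's r between members over 26 mice, for deviations from group means in log2 CPM; the colour scale runs from -0.8 to 0.8. Srebf2, Sqle, Cyp51, Insig1 and Lss have positive values with each other (0.17 to 0.61), while Fdft1 has negative or small values with Srebf2, Hmgcs1, Sqle and Cyp51 and its lowest value with Idi1 (-0.55).

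Among 8579 other genes with a mean of at least 3 in log2 CPM, those whose deviations were most like the mean of the 8 members were Trarg1 (r = 0.78, rho = 0.73), which encodes a regulator of glucose transporter traffic, and the fatty acid desaturase genes Scd2 (r = 0.78, rho = 0.83) and Scd1 (r = 0.75, rho = 0.66). Csnk1e, a casein kinase gene (r = 0.72, rho = 0.69), and Snx17, a sorting nexin gene (r = 0.70, rho = 0.71), followed. The median r over all genes tested was 0.012. In the cold, Trarg1 fell by 3.23, Scd2 by 3.27 and Scd1 by 1.08 on the log2 scale in WT mice, and Snx17 rose by 0.36. Csnk1e had a change of 0.05 (edgeR adjusted p = 0.595).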

How the data were processed

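RNA from BAT of 26 mice in 4 groups was sequenced after ribosomal RNA depletion. The authors aligned reads to mm10 with STAR 2.5.2b and deposited raw counts per Ensembl gene made with featureCounts 1.5.2; edgeR 3.22.0 is also named in the submitters' processing notes. The libraries were made with a stranded kit, but whether counting used strand is not given in the sources used here. From the counts, edgeR 4.0.16 (R 4.3.3) was run with TMM factors, filterByExpr (minimum count 10) and 1 coefficient per group, with quasi-likelihood tests (legacy method), Benjamini-Hochberg adjustment over 17286 genes and a threshold of 0.05. SEs were taken from the log2 fold change and its F value, and log2 CPM used a prior count of 2. DESeq2 1.42.0, other scalings and filters, and leaving out each mouse were alternatives. The code was tested on simulated data. Total counts were 12705969 to 25732258 per mouse. Nothing in the labels says more of how mice were housed or processed together, so p-values measure the spread between these samples. Coordinates are from GENCODE on GRCm38 (mm10), and stretches of at least 100 bases shared with other genes were searched. Named genes were the members, Srebf1, Insig2 and Scap, up to 4 other genes with the largest called change in WT mice from each pathway list, Afdn and Ucp1, and the 5 genes most like the members' mean. Some genes of these lists enter the counts but are not reported here by name. The members and lists were chosen with earlier results of these data known.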

Additional observations from a re-analysis of the deposited data

Results flagged for a closer look

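Idi1 in WT5 replicate 21 had 2.02 CPM, apart from the other 4 WT mice at 5 °C, which had 1.20 to 1.42 CPM. Its gap to the nearest mouse was 0.722 of the group's range, against a critical value of 0.71, and 1 of 32 combinations of member and group passed this test, where chance flags about 1 in 20.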

How the results depend on the processing

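Of the 8 members, 4 were called in the cold in WT mice with library size alone as the scaling and with upper-quartile factors, and 5 with no filter on low counts, with at least 10 counts in every mouse or with only the groups compared in the fit. Of all genes, 60.2%, 65.5%, 34.1%, 70.9% and 67.7% were called under these settings, in the same order. In mice labelled Afadin KO, 5 were called with library size alone, against 67.1% of all genes. DESeq2 called 1 member between labels at 5 °C and 1 for the difference of the cold responses, Fdft1 in both. Of all genes, DESeq2 called 1.14% and 2.82% in these comparisons. Leaving out each mouse gave 5 to 6 calls in the cold in WT mice, 6 to 6 in mice labelled Afadin KO, 0 to 0 between labels at 30 °C, 0 to 1 between labels at 5 °C and 0 to 1 for the difference of the cold responses. Of all genes, these fits called 62% to 65.7%, 66.9% to 68.9%, 0.0405% to 0.541%, 0.0399% to 0.579% and 0.284% to 2.16%, in the same order. No paired analysis was possible because the groups share no replicate numbers.

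Reversed values, of results with no call in the report, were as follows on the log2 scale, and of these settings library size alone gave a call for Scap in mice labelled Afadin KO (edgeR adjusted p = 0.0354). With library size alone, Srebf2 was at -0.075 and -0.215 in the cold (WT, then mice labelled Afadin KO), 0.108 between labels at 30 °C, -0.032 between labels at 5 °C and -0.14 for the difference of the cold responses, Cyp51 at -0.19 in the cold in mice labelled Afadin KO, Lss at 0.032 between labels at 30 °C, Scap at -0.06 and -0.278 and Abca1 at -0.302 in the cold. With upper-quartile factors, Srebf2 was at -0.033, -0.063, 0.021, -0.009 and -0.03 in the same order, Cyp51 at -0.046, Scap at -0.033 and -0.125 and Abca1 at -0.106. Srebf2 between labels at 30 °C was 0.004 with no filter and 0.004 with only the groups compared. Hmgcs1 between labels at 5 °C was 0.012 with RLE factors, 0.009 with no filter and 0.012 with DESeq2. In the cold in mice labelled Afadin KO, Scap was at -0.031 and Abca1 at -0.008 with at least 10 counts in every mouse, and Scap at -0.008 with only the groups compared. Leaving out a mouse gave ranges across 0 between labels at 30 °C for Srebf2 (-0.069 to 0.089), Hmgcs1 (-0.04 to 0.132) and Idi1 (-0.012 to 0.096), at 5 °C for Srebf2 (-0.047 to 0.081) and Hmgcs1 (-0.074 to 0.092), with Cyp51 from 0 to 0.199, for the difference of the cold responses for Srebf2 (-0.063 to 0.091) and Hmgcs1 (-0.134 to 0.047), and in the cold in mice labelled Afadin KO for Scap (-0.021 to 0.059) and Abca1 (-0.059 to 0.15). The cause was not tested.

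Library size alone moved the median of all genes to -0.14 and -0.344 in the cold and to 0.126 between labels at 30 °C, and calls over all genes to 4165 higher of 10408 in WT mice and 3223 of 11607 in mice labelled Afadin KO, against 5454 higher and 5779 lower in WT mice and 5825 higher and 6035 lower in mice labelled Afadin KO in the report. Upper-quartile factors gave 4694 higher of 12063 in mice labelled Afadin KO. DESeq2 called 48 and 197 genes between labels at 30 °C and 5 °C and 488 for the difference of the cold responses, against 14, 24 and 200 with edgeR. Idi1, with 20 to 65 counts per mouse, has the least depth among the members.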

Other observations

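Genes of fatty acid synthesis, the branch linked to SREBP1, fell in the cold: of 11 tested, 9 fell and 0 rose in WT mice (median -1.08 on the log2 scale), and 7 fell and 1 rose in mice labelled Afadin KO (median -1.02). Examples in WT mice were the desaturase gene Scd2 (-3.27), the ATP-citrate lyase gene Acly (-2.77), the fatty acid synthase gene Fasn (-2.69) and the acetyl-CoA carboxylase gene Acaca (-2.48). In mice labelled Afadin KO their values were -2.77, -1.63, -1.51 and -1.57. Over all genes tested, 33.4% were called lower in the cold and 31.6% higher in WT mice. In mice labelled Afadin KO these shares were 34.9% and 33.7%. For the difference of the cold responses, 0 of the 11 were called by edgeR's quasi-likelihood test, 7 had an unadjusted p under 0.05, and the median was 0.61 against 0.04 over all genes. Over all 17286 genes, 1.16% were called and 2804 had an unadjusted p under 0.05.

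Of 6 tested factors of sterol-regulated protein breakdown, 5 rose and 1, the ubiquitin ligase gene Rnf145, fell in each label (-0.73 in WT mice and -0.74 in mice labelled Afadin KO). Rnf139, also a ubiquitin ligase gene, rose by 0.43 in WT mice. Of 12 tested genes of the LXR arm, efflux and storage, 2 rose and 6 fell in WT mice and 4 rose and 5 fell in mice labelled Afadin KO. Over all genes tested, 31.6% were called higher in the cold and 33.4% lower in WT mice. In mice labelled Afadin KO these shares were 33.7% and 34.9%. In WT mice, the share of the LXR list called in either direction was near this background. Nr1h3, which encodes LXR alpha, rose by 0.73 in WT mice, and Scarb1, a lipoprotein receptor gene, fell by 1.39. Abca1, a cholesterol exporter gene, fell by 0.55 in WT mice and had a value of 0.06 in mice labelled Afadin KO, whose direction turned with library size alone as the scaling.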
